A study of Mus musculus with 16 samples.

Results

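The genes described here are 10 antioxidant and metal-binding genes measured in mouse pancreatic islets: the metallothioneins Mt1 and Mt2, heme oxygenase Hmox1, the quinone reductase Nqo1, the thioredoxin reductase Txnrd1, the sulfiredoxin Srxn1, both glutamate-cysteine ligase subunits Gclc and Gclm, the cystine transporter Slc7a11 and the secreted glutathione peroxidase Gpx3. They were chosen by symbol, and all 10 were found among the 16815 genes shared by the chow and HFD tables of gene expression. RNA sequencing of islets gave 16 libraries in 4 groups of 4, and expression is given as FPKM, fragments per kilobase of transcript scaled to library size. Flox mice were C57BL/6J B7-H4 fl/fl animals on a normal chow diet (NCD), with exon 2 of Vtcn1, the gene of the immune checkpoint protein B7-H4, flanked by loxP sites. cKO mice were Rip-Cre; B7-H4 fl/fl animals on NCD, in which a rat insulin II promoter drives Cre in β cells. Both other groups were Flox mice put on a high-fat diet (HFD) at 6 weeks of age for 8 weeks before a pancreatic intraductal infusion: Ctrl mice received AAV2/8-Ctrl and OE mice AAV2/8-Ins2-B7H4, and islets were taken 5 weeks later. All 4 groups thus carried the floxed allele, and Ctrl and OE mice had no Cre. No library came from Rip-Cre mice without the floxed allele, so Cre and loss of B7-H4 cannot be told apart in cKO against Flox. The sources do not say that the 4 libraries of a group came from separate animals, so each p-value measures the spread between these libraries, which may be technical. The study asked how loss and gain of B7-H4 in β cells change islet gene expression, and the comparisons are cKO against Flox and OE against Ctrl.

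Most of these genes are known targets of Nrf2, the transcription factor encoded by Nfe2l2. Keap1 keeps Nrf2 low by directing its degradation, oxidants and electrophiles release it, and it then acts with small Maf proteins at antioxidant response elements, where Bach1 can repress. Metallothioneins are small cysteine-rich proteins that bind zinc and copper, and their genes respond to zinc through Mtf1 at metal response elements and also to glucocorticoids. Islet β cells are known for low catalase and glutathione peroxidase and for a high zinc content in their insulin granules.

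The libraries differed in how much RNA of exocrine acinar cells they held. The summed FPKM of 24 acinar marker genes made up 7.52% to 36.1% of all FPKM in Flox, 36.9% to 46.6% in cKO, 2.21% to 76.4% in Ctrl and 11.3% to 14.7% in OE libraries, and none of the 24 genes was at 0 over a group. Ctrl2 and Ctrl3 stood apart with acinar shares of 58.3% and 76.4%, against 5.58% in Ctrl1 and 2.21% in Ctrl5. The summed share of 8 β-cell markers was 35.2% to 54.5% in Flox, 25.6% to 32.5% in cKO, 4.36% to 54.9% in Ctrl and 46.8% to 51.0% in OE libraries, with 19.0% in Ctrl2 and 4.36% in Ctrl3. Vtcn1 was at 0.0188 to 0.216 FPKM in Flox and 0.0202 to 0.125 FPKM in cKO libraries, too low in both to check the deletion, and at 0.0636 to 0.371 FPKM in Ctrl against 40.0 to 128 FPKM in OE libraries. Depth in reads is unknown, and the smallest steps between low values put relative depth within 0.942 to 1.08 in the chow table and 0.840 to 1.08 in the HFD table. In these bulk libraries, fewer cells of a type and less RNA per cell cannot be told apart.

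In cKO islets, Txnrd1, Srxn1 and Gclc were lower than in Flox islets and none of the 10 genes was called higher. Testing needed an average of 0.5 FPKM or more, which 9 of the 10 genes had. Of these, 3 passed an adjusted p of 0.05 (limma on log2(FPKM + 0.5), Benjamini-Hochberg over 11804 genes) in the lower direction, where 12.8% of all genes tested did, and 0 passed in the higher direction, where 1.02% of all genes did. None of the 3 passed the study's added threshold of a log2 fold change beyond 1, which 0.974% of genes passed downward. The median log2 fold change was -0.44 over the 9 genes and -0.34 over all genes tested, and 6 of the 9 genes and 86.9% of all genes had a fold change below 0, 3 and 13.1% above it, so the shift of the whole table lies beside every value of this comparison. In OE islets against Ctrl islets, 0 of the 9 genes passed by limma, and 0 had an unadjusted p under 0.05. In that comparison 0.033% of the 12132 genes tested passed upward and 0% downward, the median log2 fold change was 0.64 over the 9 genes and 0.44 over all genes, and 84.2% of all genes were above 0. In simulated libraries, 200 genes per comparison were changed, equal numbers of them by 1.5 and by 3 log2 units. Each gene had its real spread but varied apart from the other genes, without the shared shift of the real libraries. Of the genes changed by 1.5, 16 were called in OE against Ctrl and 92 in cKO against Flox. A lack of calls in OE thus does not show a lack of change.

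**Figure D1:**
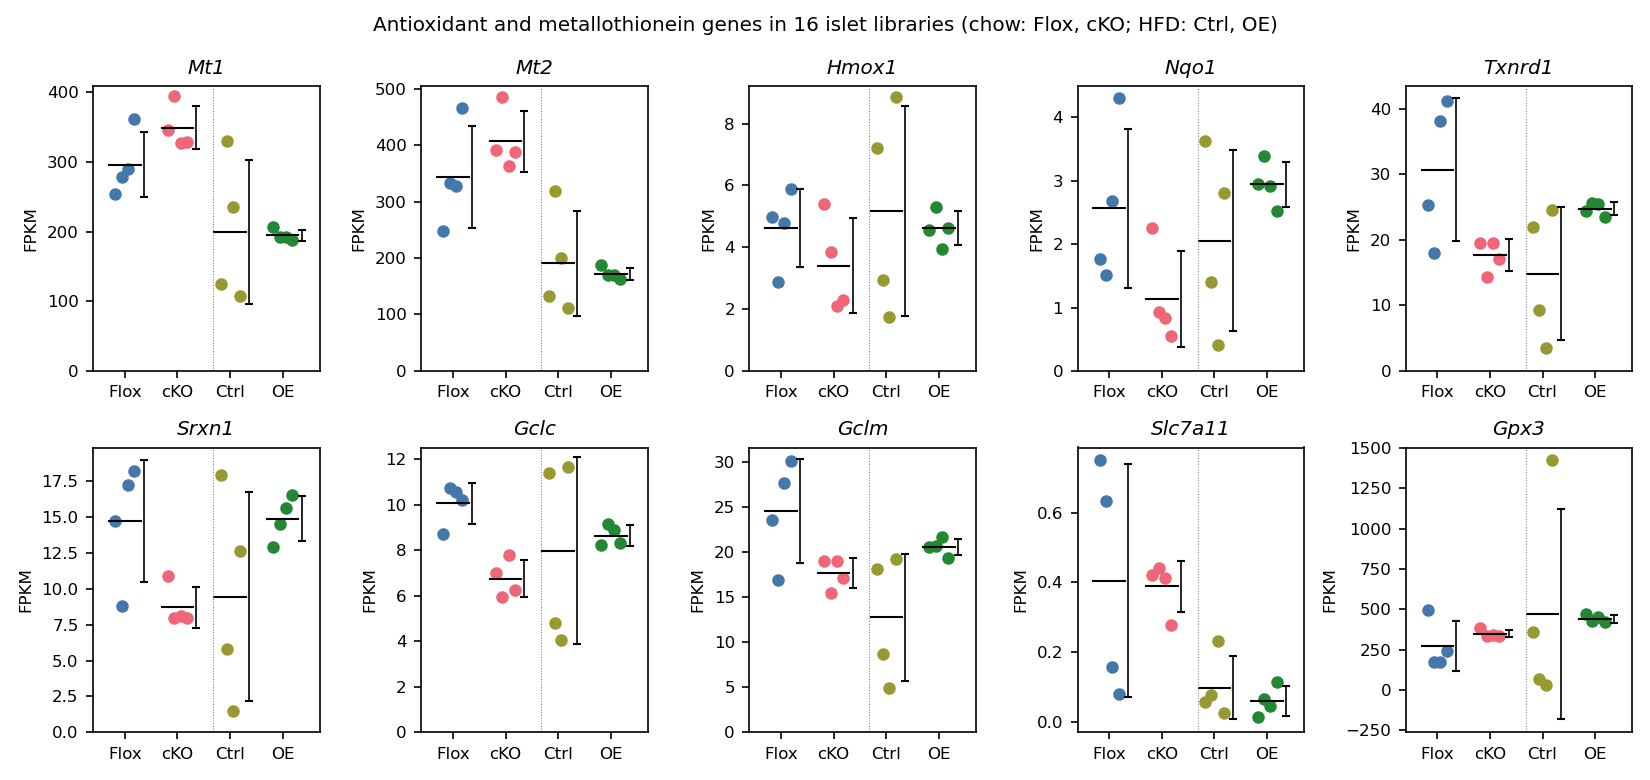
FPKM of each of the 10 genes in the 16 libraries; each point is 1 library, the horizontal line is the group mean and the bar beside it is the mean ± SD (n = 4). The OE libraries lie close together for Mt1, at 188 to 207 FPKM, while the Ctrl libraries spread from 108 to 330 FPKM, and Ctrl spreads over more of the axis than OE for the other 9 genes too.

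The metallothioneins were among the most abundant mRNAs of the islets. Mt1 ranked 83rd of 17361 genes by mean FPKM in the chow table and 158th of 17318 in the HFD table, and Mt2 ranked 70th and 175th. The genes lie next to each other on mouse chromosome 8 (GRCm38, which is mm10), Mt2 at chr8:94172664-94173568 and Mt1 at chr8:94179082-94180327, both on the + strand and 5513 bases apart. Because they are close paralogs and the counting method is not given in the sources used here, the split of reads between them is uncertain. Their upstream sequences are shown for the metal response elements they hold. The 250 bases before the RefSeq start of each gene are given 5′ to 3′ (GRCm38.p6, + strand, chr8:94178839-94179088 for Mt1 and chr8:94172368-94172617 for Mt2), with metal response elements, written TGCACNC or TGCGCNC and searched on both strands, in capitals.
Mt1: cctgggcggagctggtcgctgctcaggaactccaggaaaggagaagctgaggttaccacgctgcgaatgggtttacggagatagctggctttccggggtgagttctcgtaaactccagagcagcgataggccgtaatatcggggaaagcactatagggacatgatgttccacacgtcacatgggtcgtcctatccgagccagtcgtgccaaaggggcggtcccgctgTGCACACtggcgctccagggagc
Mt2: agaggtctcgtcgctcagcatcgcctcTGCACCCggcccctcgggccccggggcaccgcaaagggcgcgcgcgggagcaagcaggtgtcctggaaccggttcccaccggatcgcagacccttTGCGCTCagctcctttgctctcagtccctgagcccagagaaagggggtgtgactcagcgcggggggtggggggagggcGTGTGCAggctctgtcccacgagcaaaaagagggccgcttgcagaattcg
Counting 50 bases after the start as well, the Mt1 window held 3 such elements and the Mt2 window 4. Of 32851 RefSeq windows of the same length, 25.7% held at least 1, 1.97% at least 3 and 0.518% at least 4. Of the 8 genes with a RefSeq window, Gclm also held 3 and Srxn1 held 1.

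In chow islets, Mt1 was 253, 278, 290 and 362 FPKM in Flox16, Flox17, Flox20 and Flox21, and 346, 394, 327 and 329 FPKM in cKO8, cKO9, cKO12 and cKO38. All cKO libraries exceeded 3 Flox libraries and only Flox21 lay within the cKO range, so the groups overlapped. Mt2 was 248, 334, 327 and 466 FPKM in Flox and 391, 485, 363 and 387 FPKM in cKO libraries, with the same overlap through Flox21. The log2 fold changes of 0.25 (SE 0.13, adjusted p = 0.148) for Mt1 and 0.27 (SE 0.16, adjusted p = 0.192) for Mt2 did not pass limma's test. Both stood high among all genes of this table, since 93.9% and 94.2% of genes had a lower fold change. Scaling each library by its median of ratios, which divides it by the median ratio of its genes to their means over the table, brought the all-gene median to -0.00 and the values to 0.63 (adjusted p = 0.0514) for Mt1 and 0.65 (adjusted p = 0.0816) for Mt2, and after scaling to the FPKM of genes outside the acinar list Mt1 passed at 0.64 (adjusted p = 0.0308).

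Summed over both genes, the metallothioneins ranked the groups as each gene alone did. Their summed FPKM was 501, 612, 617 and 828 in Flox and 737, 879, 690 and 716 in cKO libraries. The log2 difference was 0.26 (exact permutation test over libraries, two-sided, p = 0.2, where 4 against 4 libraries cannot go below 0.0286). After median-of-ratios scaling, 1669 of 11804 genes had an unadjusted limma p under 0.05 upward and 1526 downward. As deposited, these counts were 368 and 4526. The share of all genes without overlap was not counted on the scaled values, so a lack of overlap there cannot set the sum apart. On that scale the log2 difference of the sum was 0.64 (exact permutation test, p = 0.0286), and the groups did not overlap. On the FPKM as deposited it was 0.39 with exact p = 0.0286 when Flox21, the highest Flox library, was left out, and 0.15 (p = 0.4) without Flox16; the 7 fits other than that without Flox21 gave exact p-values of 0.229 to 0.4. The acinar shares of the Flox libraries were 28.0%, 36.1%, 10.8% and 7.52% in the same order, and the part of acinar RNA in the sum was not tested.

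In HFD islets, Mt1 split the Ctrl group. It was 125, 330, 235 and 108 FPKM in Ctrl1, Ctrl2, Ctrl3 and Ctrl5, and 207, 192, 192 and 188 FPKM in OE1 to OE4. Ctrl2 and Ctrl3, the acinar-rich libraries, lay above every OE library, and Ctrl1 and Ctrl5 below every OE library. Mt2 did the same, at 132, 318, 201 and 111 FPKM in Ctrl against 188, 169, 170 and 163 FPKM in OE libraries. The log2 fold changes were 0.11 (SE 0.43, adjusted p = 0.882) for Mt1 and -0.02 (SE 0.42, adjusted p = 0.977) for Mt2. Without Ctrl2 and Ctrl3, a choice made after the data were seen, both were higher in OE, by 0.74 (adjusted p = 0.00621) and 0.51 (adjusted p = 0.0191), where 2.44% of all genes passed upward and 21.9% downward. With median-of-ratios scaling the values turned to -0.44 (adjusted p = 0.725) and -0.58 (adjusted p = 0.614), and there Mt1 stood at 507 and 696 scaled FPKM in Ctrl2 and Ctrl3 and at 86.3 and 73.1 in Ctrl1 and Ctrl5.

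The ratio of Mt1 to Mt2 within a library does not move with its scaling. It was 1.02, 0.834, 0.886 and 0.777 in Flox, 0.886, 0.812, 0.901 and 0.849 in cKO, 0.947, 1.04, 1.17 and 0.969 in Ctrl, and 1.10, 1.13, 1.13 and 1.15 in OE libraries. Mt2 was the more abundant in 7 of the chow libraries, and Mt1 in every OE library. The log2 ratio differed by -0.02 between cKO and Flox (exact permutation p = 0.886) and by 0.14 between OE and Ctrl (exact permutation p = 0.143), and Ctrl3 decided the latter, since without it the difference was 0.20 with p = 0.0286. With Benjamini-Hochberg adjustment over the 4 tests of sum and ratio, the lowest was 0.4. Chow and HFD tables were made apart and differ in diet, virus and infusion, so no test was run between them.

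**Figure D2:**
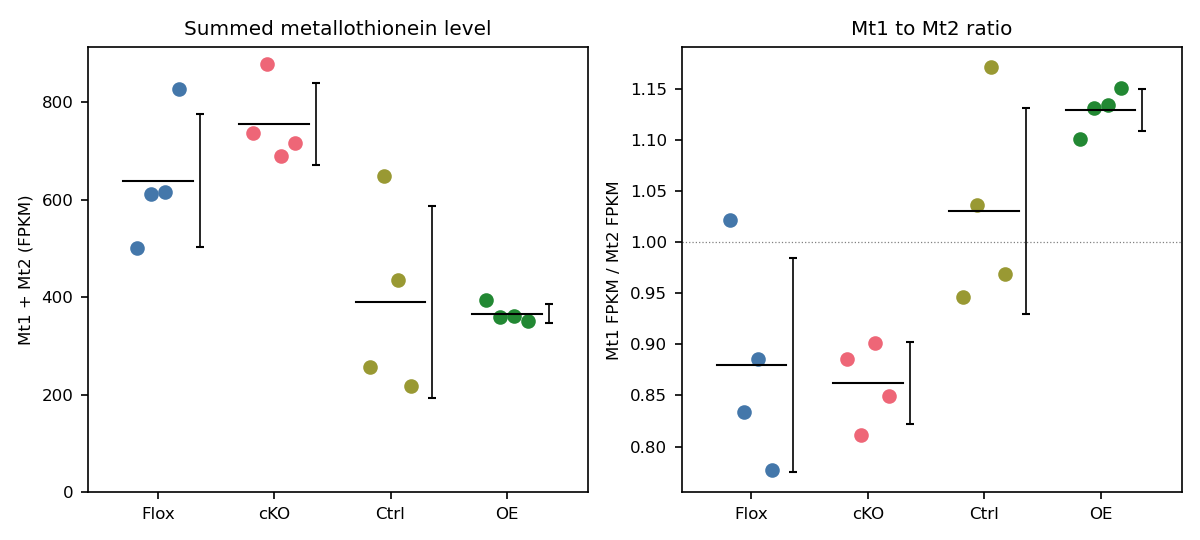
Summed Mt1 and Mt2 FPKM and the ratio of Mt1 to Mt2 FPKM by group; each point is 1 library, the line is the group mean and the bar is the mean ± SD (n = 4), and the dotted line marks equal levels. The sum is 219 to 649 FPKM in Ctrl and 351 to 394 FPKM in OE libraries, and the ratio is above 1 in all OE libraries; the ratio axis does not start at 0.

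Gclc and Gclm encode the catalytic and the modifier subunit of glutamate-cysteine ligase, the rate-limiting enzyme of glutathione synthesis. Gclc (chr9:77754535-77794485, + strand) was 8.73, 10.7, 10.6 and 10.2 FPKM in Flox16, Flox17, Flox20 and Flox21, and 6.99, 5.95, 7.77 and 6.27 FPKM in cKO8, cKO9, cKO12 and cKO38. All cKO libraries lay below all Flox libraries, which 15.4% of all genes tested did in this direction, while none of the 10 genes was higher without overlap (1.32% of all genes). It fell by 0.55 on the log2 scale (SE 0.18, adjusted p = 0.0443). Gclm (chr3:122245557-122270732, + strand) was 23.6, 17.0, 27.7 and 30.1 FPKM in Flox and 19.1, 15.5, 19.0 and 17.2 FPKM in cKO libraries. Flox17 lay within the cKO range, and the log2 fold change of -0.44 (SE 0.19, adjusted p = 0.0906) did not pass. After median-of-ratios scaling the differences were -0.18 (adjusted p = 0.427) for Gclc and -0.06 (adjusted p = 0.635) for Gclm, so the call for Gclc did not hold on that scale.

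In HFD islets, Gclm was 18.1, 8.71, 4.98 and 19.2 FPKM in Ctrl and 20.6, 20.7, 21.7 and 19.4 FPKM in OE libraries. Every OE library lay above every Ctrl library, as 5.61% of all genes tested did (lower without overlap: none of the 10 genes, 0.964% of all), but the gap between Ctrl5 and OE4 was small and the low values were those of Ctrl2 and Ctrl3. The log2 fold change was 0.85 (SE 0.48, adjusted p = 0.591), and 0.14 (adjusted p = 0.278) without Ctrl2 and Ctrl3. Gclc was 11.4, 4.82, 4.05 and 11.7 FPKM in Ctrl and 8.22, 9.14, 8.91 and 8.30 FPKM in OE libraries, with the OE libraries between both pairs of Ctrl libraries. Its log2 fold change was 0.25 (SE 0.46, adjusted p = 0.768) with all libraries. Without Ctrl2 and Ctrl3, a choice made after the data were seen, it was -0.40 (adjusted p = 0.0216). There 21.9% of all genes passed downward and 2.44% upward. With median-of-ratios scaling Gclc was at -0.27 (adjusted p = 0.315).

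Slc7a11 (chr3:49892526-50443614, - strand), the light chain of the cystine-glutamate exchanger that feeds cysteine into glutathione, was close to the lower limit of the tables. It was 0.750, 0.633, 0.158 and 0.0806 FPKM in Flox and 0.421, 0.441, 0.412 and 0.279 FPKM in cKO libraries. In the HFD table it was 0.0581, 0.0763, 0.232 and 0.0262 FPKM in Ctrl and 0.0123, 0.0655, 0.0465 and 0.114 FPKM in OE libraries. Its mean of 0.397 FPKM in the chow table and 0.0789 FPKM in the HFD table lay under the limit for testing, and both pairs of groups overlapped. The Flox16 and Flox17 libraries, with the highest acinar shares of that group, had its highest values, and Ctrl3 had the highest value of the HFD table. Other libraries went the other way. Every cKO library had a higher acinar share than Flox16 and Flox17, at 36.9% to 46.6%, and a lower Slc7a11 value. Ctrl2, at an acinar share of 58.3%, was at only 0.0763 FPKM. Whether acinar RNA took part in these values was not tested.

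Txnrd1 (chr10:82833951-82897712, + strand) encodes cytosolic thioredoxin reductase, which uses NADPH to keep thioredoxin reduced. It was 25.4, 17.9, 38.0 and 41.2 FPKM in Flox16, Flox17, Flox20 and Flox21, and 19.5, 14.4, 19.6 and 17.0 FPKM in cKO8, cKO9, cKO12 and cKO38. Flox17 was the only Flox library within the cKO range, and the acinar-poor libraries Flox20 and Flox21 were highest. Txnrd1 fell by 0.72 on the log2 scale (SE 0.23, adjusted p = 0.0442). Srxn1 (chr2:152105516-152111376, + strand), which reactivates overoxidized peroxiredoxins, was 14.7, 8.77, 17.2 and 18.2 FPKM in Flox and 10.9, 7.96, 8.08 and 7.93 FPKM in cKO libraries. Again only Flox17 lay within the cKO range, and Srxn1 fell by 0.69 (SE 0.21, adjusted p = 0.0407).

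The upstream sequence of Srxn1 is shown because this gene held the rarest of the 3 motifs searched, TGACTCAGC or TGAGTCAGC, a stretch of the sites bound by small Maf and AP-1 proteins. The 250 bases before its RefSeq start (GRCm38.p6, + strand, chr2:152105274-152105523) are given 5′ to 3′ with that match in capitals.
Srxn1: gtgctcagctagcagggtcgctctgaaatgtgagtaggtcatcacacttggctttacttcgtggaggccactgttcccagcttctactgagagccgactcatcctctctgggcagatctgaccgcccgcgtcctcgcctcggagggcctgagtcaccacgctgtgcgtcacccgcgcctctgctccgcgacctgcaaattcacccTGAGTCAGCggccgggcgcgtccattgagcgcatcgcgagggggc
Of the 32851 windows, 0.822% held this motif on either strand, and Mt2 was the only other of the 8 genes with a window to hold it. Antioxidant response elements, written TGACNNNGC, were found 1 time each in the Srxn1, Gclm and Mt2 windows and in 1 of 3 Txnrd1 windows, against 12.4% of all windows; the Mt2 match is the same stretch as its TGACTCAGC. Hmox1 and Gclc had no RefSeq window. A match is a description of letters and was not tested as a site.

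The calls for Txnrd1, Srxn1 and Gclc depended on scaling and on single libraries. After median-of-ratios scaling the differences were -0.34 (adjusted p = 0.143), -0.32 (adjusted p = 0.111) and -0.18 (adjusted p = 0.427), and none of the 9 genes passed, where 1.23% of all genes passed downward and 1.09% upward. With the acinar share as a covariate they were -0.05, -0.17 and -0.49, with adjusted p-values of 0.728 to 0.976. Every cKO library had a higher acinar share than every Flox library, and 0 of 11804 genes passed in either direction with this covariate. A call lost there thus cannot tell these genes from any others. None of Txnrd1, Srxn1 and Gclc stayed called without Flox20, Flox21, cKO9, cKO12 or cKO38, each left out alone. Txnrd1 and Gclc also lost their calls without cKO8. Without Flox17, 5 members were called lower, where 6759 of 11821 genes tested were called lower and 333 higher. Without both Flox16 and Flox17, a choice made after the data were seen that leaves the 2 acinar-poor Flox libraries, Txnrd1 was lower, at -1.16 (adjusted p = 9.12e-06) and Srxn1 was lower, at -0.995 (adjusted p = 6.37e-05), and 5 of the 9 genes were called lower and 1, Gpx3, higher, where 69.2% of all genes passed downward and 5.28% upward.

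In HFD islets, Txnrd1 was 22.0, 9.26, 3.46 and 24.6 FPKM in Ctrl1, Ctrl2, Ctrl3 and Ctrl5, and 24.5, 25.6, 25.5 and 23.5 FPKM in OE libraries. Srxn1 was 17.9, 5.78, 1.503 and 12.6 FPKM in Ctrl and 12.9, 14.5, 15.6 and 16.5 FPKM in OE libraries. For both genes the low values were those of Ctrl2 and Ctrl3, and Ctrl5 (Txnrd1) or Ctrl1 (Srxn1) lay within or above the OE range. The log2 fold changes were 1.05 (SE 0.53, adjusted p = 0.591) for Txnrd1 and 1.05 (SE 0.57, adjusted p = 0.591) for Srxn1. With the acinar share as a covariate Txnrd1 (0.94, adjusted p = 0.0395), Gclm (0.77, adjusted p = 0.0378) and Gpx3 (1.05, adjusted p = 0.0326) were higher in OE and none was lower, where 13.4% of all genes passed upward and 2.27% downward. After median-of-ratios scaling none of the 9 genes passed (0.0495% of all genes upward, 0.00824% downward), with 5 of the 9 above 0 and 4 below. On that scale Txnrd1 was 10.2 to 16.7 FPKM in Ctrl and 19.4 to 21.0 FPKM in OE libraries (0.54, adjusted p = 0.104). Srxn1 was 4.45 to 12.4 FPKM in Ctrl and 10.8 to 13.6 FPKM in OE libraries (0.56, adjusted p = 0.24). Without Ctrl2 and Ctrl3 the values were 0.09 (adjusted p = 0.495) for Txnrd1 and -0.02 (adjusted p = 0.94) for Srxn1.

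**Figure D3:**
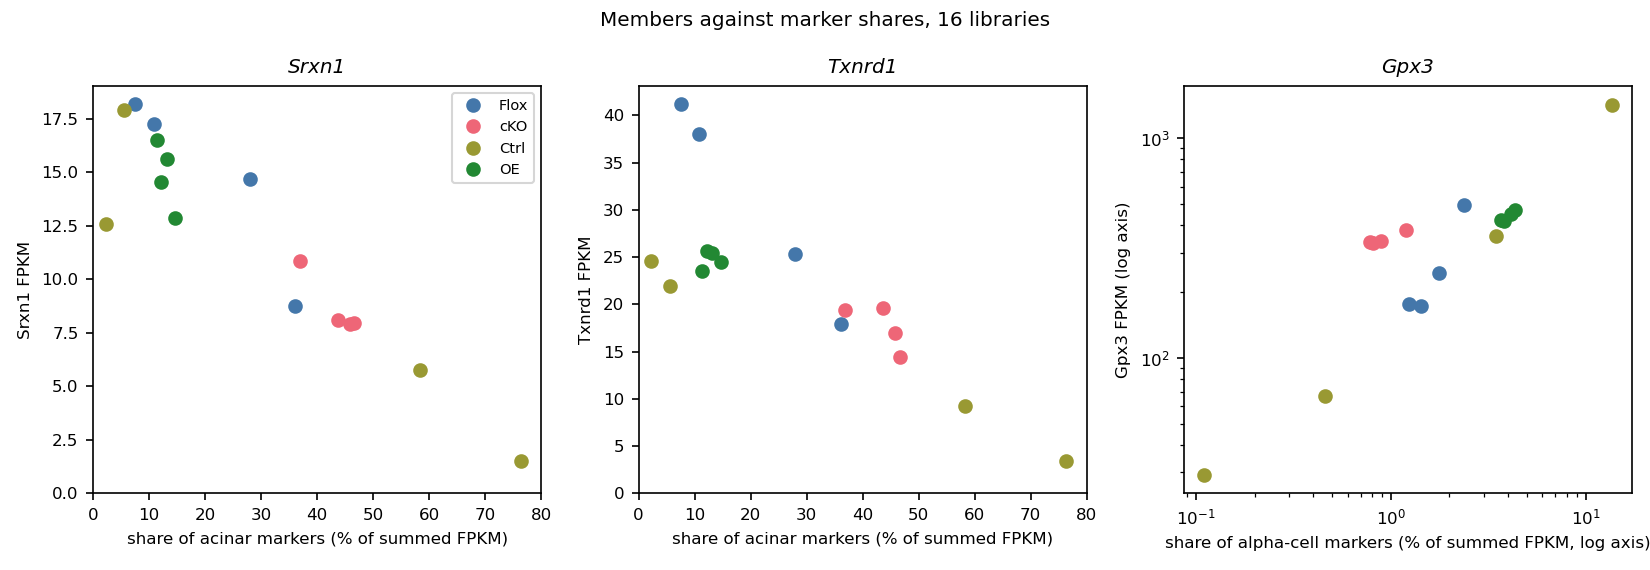
Srxn1 and Txnrd1 FPKM against the share of 24 acinar markers, and Gpx3 FPKM against the share of 6 alpha-cell markers (both in percent of summed FPKM, log axes for Gpx3), 1 point per library coloured by group. Ctrl3, at an acinar share of 76.4%, has the lowest Srxn1 and Txnrd1, and Gpx3 runs from 29.2 FPKM in Ctrl3 to 1422 FPKM in Ctrl5, the libraries with the lowest and the highest alpha-marker share. These libraries also have the lowest and the highest shares of delta-cell and macrophage markers, which are not drawn.

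Nqo1 (chr8:107388225-107403206, - strand), a quinone reductase often used as a readout of Nrf2, was 1.76, 1.51, 2.68 and 4.30 FPKM in Flox and 2.25, 0.926, 0.828 and 0.548 FPKM in cKO libraries. All cKO libraries other than cKO8 lay below all Flox libraries. Its log2 fold change of -0.92 (SE 0.33, adjusted p = 0.0727) was the largest of the 9 in size and did not pass, and it was -0.63 (adjusted p = 0.168) after median-of-ratios scaling. In HFD islets it was 3.62, 1.40, 0.405 and 2.80 FPKM in Ctrl and 2.95, 3.40, 2.91 and 2.53 FPKM in OE libraries, with a log2 fold change of 0.64 (SE 0.46, adjusted p = 0.591). Ctrl1 lay above every OE library and Ctrl2 and Ctrl3 below every OE library.

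Hmox1 (chr8:75093621-75100589, + strand) degrades heme and is induced by it through Bach1. It was 4.97, 2.88, 4.78 and 5.89 FPKM in Flox and 5.39, 3.86, 2.10 and 2.28 FPKM in cKO libraries. The groups overlapped and the log2 fold change of -0.44 (SE 0.26, adjusted p = 0.2) did not pass. In HFD islets it was 7.20, 2.94, 1.73 and 8.86 FPKM in Ctrl and 4.55, 5.31, 3.96 and 4.63 FPKM in OE libraries. The OE libraries lay between both pairs of Ctrl libraries, the log2 fold change was 0.07 (SE 0.48, adjusted p = 0.937), and without Ctrl2 and Ctrl3 Hmox1 was lower in OE, at -0.74 (adjusted p = 0.012), in a comparison where 21.9% of all genes passed downward.

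Gpx3 (chr11:54902453-54910377, + strand) encodes a selenium-containing glutathione peroxidase that is secreted into plasma. It ranked 89th of 17361 genes in the chow table and 65th of 17318 in the HFD table by mean FPKM, on a level with the metallothioneins. In Flox16, Flox17, Flox20 and Flox21 it was 498, 172, 175 and 242 FPKM, and in cKO8, cKO9, cKO12 and cKO38 it was 383, 336, 341 and 334 FPKM. All cKO libraries lay above 3 Flox libraries and below Flox16. The log2 fold change of 0.50 (SE 0.34, adjusted p = 0.274) did not pass. Without Flox16 it was 0.84 (adjusted p = 7.08e-05), so Flox16 decided this value. In that fit 348 of 11800 genes tested were called higher and 2509 lower, against 120 and 1511 of 11804 with all libraries.

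The Ctrl group spread most for Gpx3. It was 358, 66.6, 29.2 and 1422 FPKM in Ctrl1, Ctrl2, Ctrl3 and Ctrl5, a ratio of 48.7 between the highest and lowest library, and 470, 424, 451 and 420 FPKM in OE1 to OE4. Ctrl5 lay above and the other Ctrl libraries below all OE libraries, and the log2 fold change was 1.30 (SE 0.94, adjusted p = 0.591). The summed share of 6 alpha-cell markers ran in the same order within Ctrl, at 3.49%, 0.458%, 0.110% and 13.6% in Ctrl1, Ctrl2, Ctrl3 and Ctrl5, and was 3.69% to 4.36% in OE libraries. This order was not particular to alpha-cell markers. Delta-cell markers had it too, at 0.538%, 0.102%, 0.0314% and 2.18% in Ctrl1, Ctrl2, Ctrl3 and Ctrl5, as did macrophage and duct markers. In the chow table the alpha-marker share was 2.37%, 1.42%, 1.24% and 1.76% in Flox and 0.782% to 1.20% in cKO libraries. There Gpx3 was higher in cKO than in 3 Flox libraries that had higher alpha-marker shares. The part of alpha cells or other cell types in the Gpx3 values was not tested.

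Between the members, Srxn1 and Txnrd1 had the most alike profiles after Mt1 and Mt2. Mt1 and Mt2 differed by a root-mean-square of 0.11 log2 units over the 16 libraries, centred within each table, and Srxn1 and Txnrd1 by 0.20, against own deviations of 0.36 for Mt1 and 0.79 for Srxn1. Mt1 and Srxn1 differed by 1.02, more than the deviation of either. Among 11553 genes, with the members left aside, those nearest to Srxn1 were Ddc, C2cd2l and Gng4 (0.11 to 0.12). Those nearest to Txnrd1 were Ndrg3, Ppme1 and Mark1 (0.0868 to 0.0996). For Gclm they were 2510039O18Rik, Arhgap1 and Psmd2 (0.0705 to 0.0747), for Gclc Rpf1, Lims1 and Gstcd (0.12), for Hmox1 Rfxank, Cyren and Samd1 (0.17 to 0.18), and for Nqo1 Nat14, Eps8l2 and Zdhhc17 (0.22 to 0.23). No gene lay within 0.5 of the own deviation of Mt1, Mt2 or Slc7a11. These distances describe libraries that share composition and scaling.

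**Figure D4:**
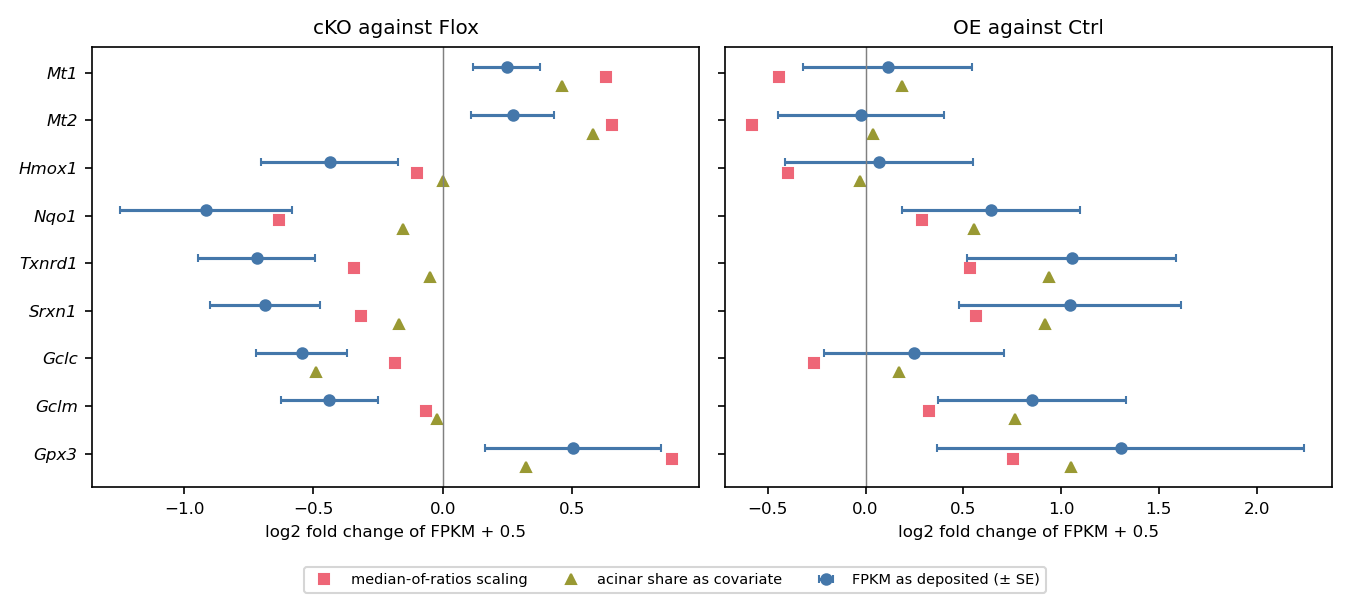
Log2 fold changes of FPKM + 0.5 for the 9 genes tested in cKO against Flox and OE against Ctrl; circles with bars are the values as deposited ± SE, squares after median-of-ratios scaling and triangles with the acinar share as covariate. In cKO against Flox, Txnrd1 moves from -0.72 to -0.34 and -0.05, while Mt1 and Mt2 lie above 0 in all 3.

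With all libraries and FPKM as deposited, the regulators of these genes did not pass in either comparison. Nfe2l2 (Nrf2) was 8.61 ± 2.26 FPKM in Flox and 8.94 ± 1.90 in cKO (SD, n = 4), with a log2 fold change of 0.07 (adjusted p = 0.793), and -0.33 (adjusted p = 0.694) in OE against Ctrl. Keap1 was at -0.33 (adjusted p = 0.184) and 0.70 (adjusted p = 0.591), Bach1 at -0.53 (adjusted p = 0.0584) and 1.10 (adjusted p = 0.591), and Mtf1 at -0.32 (adjusted p = 0.216) and 0.68 (adjusted p = 0.591). Other settings gave calls. Without Flox17, Keap1 (-0.52, adjusted p = 0.00399), Bach1 (-0.46, adjusted p = 0.0337) and Mtf1 (-0.48, adjusted p = 0.028) were lower in cKO. There 6759 of 11821 genes were called lower and 333 higher, and the all-gene median was -0.46. The calls without Flox17 thus do not set these regulators apart from other genes. Bach1 was higher in OE with the acinar share as covariate (1.02, adjusted p = 0.0378), where 13.4% of all genes passed upward and 2.27% downward. Nfe2l2 was lower in OE without Ctrl2 and Ctrl3 (-0.72, adjusted p = 0.0426), where 21.9% passed downward and 2.44% upward. Of 8 Nrf2 regulators, 0 passed in cKO against Flox by limma, and 5 of them, none higher, had an unadjusted p under 0.05 downward, as 38.3% of all genes did (upward 3.12%). Of 20 other Nrf2 target genes 0 passed (unadjusted p under 0.05: 1 higher, 4 lower), and their median log2 fold change of -0.19 lay beside -0.34 for all genes.

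Among genes of glutathione and zinc handling, single genes passed in cKO against Flox. Of 14 genes of glutathione enzymes and cystine transport, 2 were lower and 0 higher, a share near the 12.8% of all genes called lower: Glrx, a glutaredoxin that reduces glutathionylated proteins, at 11.03 ± 1.29 FPKM in cKO and 22.4 ± 7.02 in Flox (-0.94, SE 0.21, adjusted p = 0.018), and Gpx8, a peroxidase of the endoplasmic reticulum, at -0.62 (adjusted p = 0.0423). Glrx kept its call after median-of-ratios scaling, at -0.56 (adjusted p = 0.038). With the acinar share as covariate, where 0 of 11804 genes passed, Glrx was at -0.35 (adjusted p = 0.768). Gpx8 lost its call after median-of-ratios scaling, at -0.36 (adjusted p = 0.231), and with the covariate, at -0.51 (adjusted p = 0.765). Of 8 zinc-handling genes tested, Slc30a2, a vesicular zinc transporter, was higher at 2.94 ± 0.572 FPKM in cKO and 0.447 ± 0.343 in Flox (1.90, SE 0.22, adjusted p = 0.000264). It was the 1 gene of this list called higher, as were 1.02% of all genes. Slc30a2 was also higher after median-of-ratios scaling (2.12, adjusted p = 0.0217) but not with the acinar share as covariate (1.52, adjusted p = 0.444). Slc30a8, the zinc transporter of insulin granules, was lower at 229 ± 47.9 FPKM in cKO and 401 ± 74.2 in Flox (-0.81, adjusted p = 0.0141) and Slc30a5 was lower at -0.61 (adjusted p = 0.043), and these 2 of 8 (12.8% of all genes) lost the call after scaling, at adjusted p-values of 0.0941 and 0.215. Beside these counts, 24 of 24 acinar markers had fold changes above 0 (0 of them past the adjusted p and 15 at an unadjusted p under 0.05). Called lower were 4 of 8 β-cell, 3 of 6 alpha-cell, 5 of 6 endothelial and 2 of 6 stellate and fibroblast markers. Of all genes, 12.8% were. After median-of-ratios scaling these counts were 0, 0, 1 and 0, beside 1.23% of all genes. Of 7 duct markers 1 was called higher (1.02% of all genes) and 0 lower. Of the delta-cell, macrophage, adipocyte and intestinal markers 0 were called. The part of these cell types in the values was not tested.

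In the remaining lists, Ftl1, the ferritin light chain, was the 1 lower gene of 7 in iron and heme handling, at -0.61 (adjusted p = 0.0248), again near the 12.8% of all genes called lower. Of 6 glucocorticoid-induced genes tested, Nfil3 (-2.16, adjusted p = 0.0441) and Klf9 (-0.92, adjusted p = 0.0162) were lower, beside the same 12.8% of all genes. The call held after median-of-ratios scaling for Nfil3 (-1.83, adjusted p = 0.047) and not for Klf9 or Ftl1 (adjusted p = 0.141 and 0.284). Nfil3 lost it with a pseudocount of 1 (adjusted p = 0.0501) and with scaling to FPKM outside the acinar list (adjusted p = 0.0769). With the acinar share as covariate, where 0 of 11804 genes passed, Nfil3 was at -0.88 (adjusted p = 0.713). Leaving out each library in turn (8 fits), the call held in 8 for Slc30a2, 7 for Slc30a8, 6 for Klf9, 4 for Glrx, 3 for Gpx8, 3 for Ftl1, 1 for Slc30a5 and 1 for Nfil3, the last only without Flox17. None of 11 thioredoxins and peroxiredoxins, 4 superoxide dismutases and catalase, or 8 genes of the amino acid response passed, and an unadjusted p under 0.05 was reached by 1 gene of each upward and by 2, 1 and 0 downward. In OE against Ctrl, 0 genes of these 9 lists passed by limma, and an unadjusted p under 0.05 was reached by 0 to 2 genes per list upward and 0 to 1 downward, where 5.58% and 0.833% of all genes did.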

How the data were processed

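Total RNA of islets, picked by hand after collagenase digestion of the pancreas, was sequenced on an Illumina NovaSeq instrument. The authors deposited 2 tables of FPKM values per gene, for 8 chow and 8 HFD libraries; the submitters' processing notes name the build mm10, and the aligner, counting tool and annotation are not given in the sources used here. The members and gene lists were chosen with earlier results of these data known. Each table was tested alone with limma 3.58.1 (R 4.3.3) on log2(FPKM + 0.5), with variance trend and robust empirical Bayes, for genes averaging 0.5 FPKM or more in the table's 8 libraries, and Benjamini-Hochberg adjustment over all genes tested; such a fold change understates the change of low genes. All members are named, as are the regulators Nfe2l2, Keap1, Bach1 and Mtf1, list genes at an adjusted p under 0.05 (at most the 4 largest per list), and the 3 nearest genes in profile where their distance was under 0.5 of the member's own deviation. The nearest genes of Gpx3 are not reported here. The sum and ratio of Mt1 and Mt2 were tested by exact permutation. Gene positions come from GENCODE M21 (GRCm38) and upstream sequences from RefSeq (GRCm38.p6), matched for 8 of 10 members by symbol. Alternatives were pseudocounts of 1 and 0.1, no filter, a minimum mean of 1, median-of-ratios scaling, scaling to FPKM outside the acinar list, the acinar share as covariate, no trend, 3 libraries per group as in the study's heatmaps, a replicate block and each library left out. Scripts were tested on simulated data.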

Additional observations from a re-analysis of the deposited data

Results flagged for a closer look

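In 3 of 40 sets of 4 libraries (10 genes in 4 groups), 1 library lay farther from the others than Dixon's criterion at the 95% level allows, a rate that chance gives in about 1 in 20 sets. Srxn1 was 10.9 FPKM in cKO8, with 7.93 to 8.08 FPKM in the other cKO libraries. Gpx3 was 383 FPKM in cKO8, with 334 to 341 FPKM in the others. Slc7a11 was 0.279 FPKM in cKO38, with 0.412 to 0.441 FPKM in the others. The library cKO8 had the lowest acinar share of its group, 36.9% against 43.7% to 46.6%; its part in these values was not tested.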

How the results depend on the processing

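In cKO against Flox, 3 members were called lower and 0 higher, of 1511 and 120 of all genes. The lower members were 0 with every gene tested, with median-of-ratios scaling, with scaling to FPKM outside the acinar list and with the acinar share as covariate, 1 without variance trend, 6 in the heatmap libraries and 5 without Flox16 and Flox17. Members called higher were 1 with the scaling outside the acinar list, 1 under the replicate block and 1 without Flox16 and Flox17. Counts over all genes, higher and lower, were 0 and 0 with every gene tested, 0 and 0 with the covariate, 316 and 7484 in the heatmap libraries and 624 and 8181 without Flox16 and Flox17. The lower count was 145 with median-of-ratios scaling (129 higher), 33 with the scaling outside the acinar list (107 higher) and 974 without trend. The replicate numbers did not pair the samples (correlations of same-numbered deviations -0.215 to 0.122 in chow and -0.132 to 0.102 in HFD libraries); under the replicate block 289 genes were higher and 2455 lower, 4 members were lower and Gpx3 was higher (0.50, adjusted p = 0.00759), and in OE against Ctrl 4 genes were higher. Leaving out 1 library each, members called higher were 0 to 1 and lower 0 to 5, all genes 2 to 348 and 17 to 6759. In OE against Ctrl, 4 of all genes were higher and 0 lower, 4 to 5 and 0 with 1 library left out, and members stayed at 0. There, 13 genes were higher with every gene tested, 1625 higher and 276 lower with the covariate, 301 and 2692 without Ctrl2 and Ctrl3, and 1 and 3 lower with either scaling. Members were 3 higher with the covariate and 2 higher and 2 lower without Ctrl2 and Ctrl3.

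Signs that turned, none called as deposited, follow. In cKO against Flox they were Nfe2l2 (-0.25 in the heatmap libraries, -0.10 without Flox16 and Flox17), Keap1 (0.0424, 0.0515 and 0.0462) and Mtf1 (0.0126, 0.0196 and 0.10) with median-of-ratios, the other scaling and the covariate. In OE against Ctrl, both scalings gave Mt1 -0.44 and -0.49, Hmox1 -0.40 and -0.44, and Gclc -0.27 and -0.31; the covariate gave Mt2 0.0395 and Hmox1 -0.0305; the heatmap libraries gave Mt1 -0.045. Without Ctrl2 and Ctrl3 the values were Mt2 0.51, Hmox1 -0.74, Nqo1 -0.10, Srxn1 -0.0196, Gclc -0.40, Gpx3 -0.69 and Mtf1 -0.0547. The log2 metallothionein sum was 0.64 and 0.65 with the scalings in cKO against Flox (0.15 to 0.39 with 1 library left out), and -0.51, -0.56 and, in the heatmap libraries, -0.0880 in OE against Ctrl (-0.19 to 0.34); the log2 ratio ran from -0.0803 to 0.0515 and from 0.10 to 0.20. With 1 library left out, Nfe2l2 ran from -0.12 to 0.17 in cKO against Flox, and in OE against Ctrl Mt1 from -0.13 to 0.40, Mt2 from -0.24 to 0.26, Hmox1 from -0.30 to 0.39 and Gclc from -0.006 to 0.47. The causes were not tested. The acinar share is a measure of the same FPKM and is uneven between groups. Depth in reads is unknown, so no counting error could be given.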
